A study of Mus musculus with 6 samples.

Results

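RGS genes encode regulators of G protein signalling, and 8 of them were followed here in regulatory T cells with 1 or 2 gfp alleles of Blimp1. The genes were chosen by name, as Rgs1, Rgs2, Rgs3, Rgs10, Rgs14, Rgs16, Rgs18 and Rgs19, with earlier results of these data known. Every probe that the array's annotation assigns to them was read. The annotation held 18 probes for 7 of the 8 genes, and none for Rgs14, which was not analysed here. Of the 7, 5 were detected well enough to be tested, among 8743 genes tested in all.

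The cells were labelled regulatory T cells from bone marrow of C57/B6 mice. The 2 genotypes were Blimp1 +/gfp and Blimp1 gfp/gfp, with 3 samples each and 1 Illumina BeadChip array per sample, so every sample carried at least 1 gfp allele. Blimp1 is the transcriptional repressor encoded by Prdm1, and a gfp cassette in this gene is known to report its expression and to leave homozygous cells without functional Blimp-1. The labels give no age, sort gate, or statement on pooling or on separate animals, so p-values here measure only the spread between these samples.

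Many chemokine, lipid and neurotransmitter receptors signal through G proteins, whose alpha subunit is active while it holds GTP. RGS proteins share a domain that speeds up GTP hydrolysis by alpha subunits of the Gi and Gq classes, which shortens the signal. In lymphocytes they are known for damping the migration of cells towards chemokines. Rgs1, Rgs2, Rgs3, Rgs16 and Rgs18 belong to the R4 subfamily, Rgs10 and Rgs14 to the R12 subfamily and Rgs19 to the RZ subfamily.

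Facts that touch all results come first. Between 14694 and 16067 of 46632 probes were detected per array, meaning a detection p below 0.05, and with 3 arrays per genotype the number of arrays limits the precision. The 2 genotypes were run on separate BeadChips, and an effect of the chip cannot be told apart from one of genotype. Eif2s3y, a Y-linked gene singled out after its values were seen, was detected on 3 Blimp1 +/gfp and 0 Blimp1 gfp/gfp arrays. Xist, the RNA of the inactive X chromosome and singled out in the same way, read 9.69, 9.20 and 5.52 in Blimp1 +/gfp and 9.89, 11.37 and 11.02 in Blimp1 gfp/gfp. Both signals were thus present in Blimp1 +/gfp replicates 1 and 2, and replicate 3 held the Y-linked one without detected Xist. Replicate 3 was therefore not a repeat run of the RNA of replicates 1 or 2. Whether replicates 1 and 2 came from separate RNA cannot be told from these signals. The Y-linked signal ran with genotype on every array, so an effect tied to it cannot be told apart from one of genotype. The part of the Xist differences in the results was not tested. The brighter Prdm1 probe read 5.76, 5.82 and 5.50 on the normalized log2 scale in Blimp1 +/gfp and 7.14, 7.75 and 7.54 in Blimp1 gfp/gfp (difference 1.79 ± 0.20 SE, adjusted p = 0.00744 in limma). The brighter probe was detected on 1 Blimp1 +/gfp array and 3 Blimp1 gfp/gfp arrays. It was therefore tested only because of its level in Blimp1 gfp/gfp. The other Prdm1 probe, detected on 2 arrays of each genotype, differed by 1.09 ± 0.62 (adjusted p = 0.452 in limma over probes). No source gives the position of either probe within the targeted allele, so they check nothing about the labels. The T cell marker Cd3e averaged 14.24 ± 0.15 and 14.27 ± 0.19 and the regulatory T cell factor Foxp3 12.25 ± 0.40 and 11.96 ± 0.47 (SD, n = 3) in Blimp1 +/gfp and Blimp1 gfp/gfp.

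Rgs10 was the one tested RGS gene that passed the threshold, about 2-fold higher in Blimp1 gfp/gfp. Its adjusted p of 0.0420 in limma lay close to 0.05, and it passed in 12 of 19 alternative settings. Rgs1 lay lower in Blimp1 gfp/gfp on both of its bright probes without passing the test. Rgs16, Rgs19 and Rgs3 differed by less and did not pass, and Rgs2 and Rgs18 were not detected in any sample. So 1 of 5 tested members passed, against 4.12% of all 8743 genes (limma, Benjamini-Hochberg adjusted p under 0.05), or 2.42% counted in the higher and 1.69% in the lower direction. Of the 360 genes that passed, 212 were higher and 148 lower, a split that was 294 and 120 with median scaling. The 3 values of one genotype lay entirely above those of the other for 3 of the 5 members, 2 of them higher in Blimp1 gfp/gfp and 1 lower, against 25.8% of all genes (15.4% higher, 10.4% lower). Rgs19, 1 of these 3, had nearest values of 8.22 and 8.23, and its deposited intensities before normalization overlapped. An unadjusted p under 0.05 was reached by 2 of the 5, against 18.5% of all genes. The median difference of the 5 was 0.29 on the log2 scale, beside 0.03 for all genes. The members and the gene lists below were chosen with earlier results of these data known. Shares set beside those of all genes are therefore descriptions and no support for a set.

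**Figure D1:**
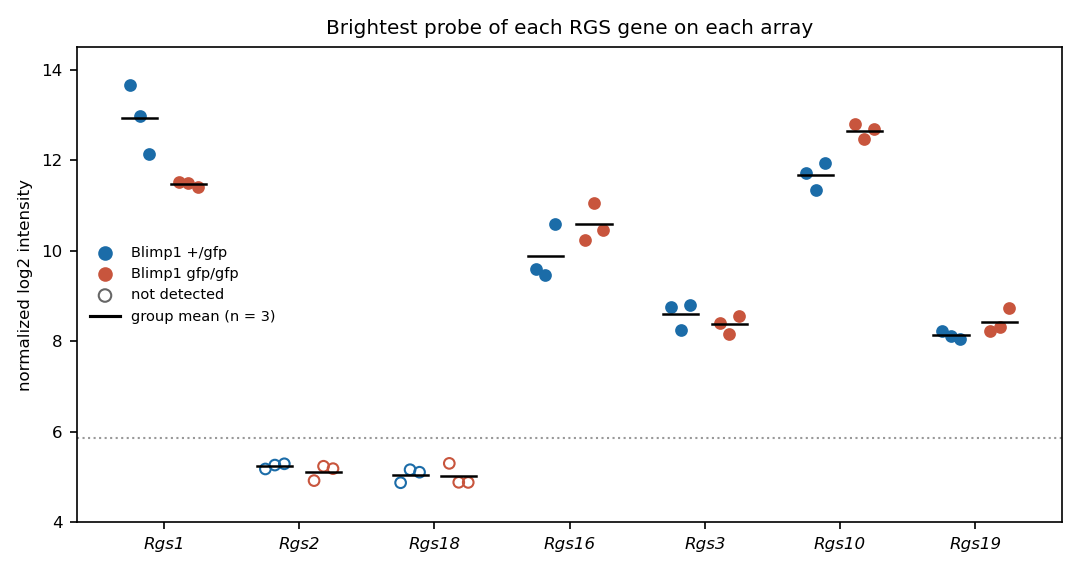
Normalized log2 intensity of the brightest probe of each RGS gene on each array, with blue points for Blimp1 +/gfp, red for Blimp1 gfp/gfp, open points for arrays without detection and black bars for group means (n = 3). The dotted line is the highest, over arrays, of the lowest value of a detected probe; Rgs2 and Rgs18 lie below it throughout, and Rgs1 and Rgs10 show no overlap between genotypes, in opposite directions. Levels of different probes cannot be set against each other.

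Rgs1 encodes a GTPase-activating protein known from B cells and activated T cells, where it limits responses to chemokines. Its brightest probe, ILMN_2625377, read 13.65, 12.97 and 12.14 on the Blimp1 +/gfp arrays, replicates 1 to 3, while the Blimp1 gfp/gfp arrays gave 11.53, 11.51 and 11.41. The Blimp1 gfp/gfp values lay within 0.12 of each other, while the Blimp1 +/gfp values spread over 1.51, and the nearest values of the genotypes were 0.61 apart. The difference, Blimp1 gfp/gfp minus Blimp1 +/gfp, was -1.44 ± 0.36 (SE; 95% confidence interval -2.28 to -0.60), or 2.71-fold lower, with an adjusted p of 0.0812 in limma (Benjamini-Hochberg).

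The deposited intensities, before any normalization, kept the order of the Blimp1 +/gfp arrays but left almost no gap between genotypes. On a linear scale, ILMN_2625377 read 14148, 8258 and 3656 in Blimp1 +/gfp and 3192, 3420 and 2932 in Blimp1 gfp/gfp. Blimp1 +/gfp replicate 3, at 3656, sat just above the highest Blimp1 gfp/gfp array, at 3420, and replicate 1 stood far above them.

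The second Rgs1 probe, ILMN_2596596, ranked the Blimp1 +/gfp arrays in the same order, at 11.77, 10.58 and 9.69. It read 8.56, 9.14 and 8.65 in Blimp1 gfp/gfp, again without overlap. Its difference was -1.89 ± 0.49 (SE), with an adjusted p of 0.107 in limma over 12042 probes. The third probe, ILMN_2482308, was not detected on any array, with values of 4.80 to 5.02 near the bottom of the scale.

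Rgs1 passed in 3 of 19 alternative settings, and in 1 of 6 omissions of an array. Without Blimp1 +/gfp replicate 3 the difference was -1.83 and passed (adjusted p = 0.0134 in limma). The other omissions did not pass (0.141 to 0.235), and without Blimp1 +/gfp replicate 1 the difference was -1.08. Rgs1 also passed with an intensity trend in the variance model (0.0383) and with array weights (0.0125). It did not pass with median scaling (0.132) or the replicate block (0.104). Blimp1 +/gfp replicate 3, the lowest Rgs1 value of its group, was also the array with the highest summed antigen presentation markers (16.13 on the log2 scale, other arrays 13.50 to 14.27) and the highest myeloid markers (13.65, others 11.33 to 12.24). Erythroid markers were highest on that array too (13.45, others 7.83 to 12.97). The part of these marker lists in the Rgs1 values was not tested.

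Rgs2, an R4 member known for acting on Gq, and Rgs18, an R4 member known from platelets and megakaryocytes, gave no signal above background. The 2 Rgs2 probes and the 1 Rgs18 probe were undetected on all 6 arrays. Rgs2 ranged from 4.86 to 5.29 and Rgs18 from 4.88 to 5.30 on the normalized log2 scale, so any difference in them was not detectable on these arrays. In the RefSeq gene order of GRCm38.p6, Rgs2, Rgs13, Rgs1, Rgs21 and Rgs18 follow each other among protein-coding genes. Rgs13 was undetected too, so of the measured genes in that run Rgs1 was the one with a signal; Rgs21 had no probe.

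Rgs16 encodes an R4 protein that is induced in activated T cells and limits chemokine-driven migration. Its single probe read 9.60, 9.45 and 10.58 in Blimp1 +/gfp and 10.25, 11.05 and 10.47 in Blimp1 gfp/gfp. The genotypes overlapped, because Blimp1 +/gfp replicate 3 exceeded 2 of the Blimp1 gfp/gfp arrays. The difference was 0.71 ± 0.35 (SE; 95% confidence interval -0.12 to 1.53), with an adjusted p of 0.346 in limma.

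Rgs3 is a larger R4 gene with several transcript forms, and 8 probes on the array carry its name. Of these, 4 were detected on at least 3 arrays. The brightest, ILMN_1241709, read 8.76, 8.26 and 8.80 in Blimp1 +/gfp and 8.41, 8.16 and 8.55 in Blimp1 gfp/gfp, which overlap. Its difference was -0.24 ± 0.20 (SE; 95% confidence interval -0.71 to 0.24), with an adjusted p of 0.613 in limma.

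A pair of dimmer Rgs3 probes kept the genotypes apart on the normalized scale. ILMN_1228100 read 8.14, 8.03 and 7.99 in Blimp1 +/gfp and 7.05, 7.58 and 7.64 in Blimp1 gfp/gfp, a difference of -0.63 ± 0.20 (SE) with an adjusted p of 0.164 in limma. ILMN_1247821 read 8.65, 8.42 and 8.32 against 8.16, 7.82 and 8.18, a difference of -0.41 ± 0.18 (adjusted p = 0.311 in limma). None of the 4 Rgs3 probes passed, and the dimmest, ILMN_2610679, differed by 0.05 ± 0.20 near background. The other 4 were detected on 0 arrays.

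Rgs10 encodes a small R12 protein that is little more than the RGS domain and is known from lymphoid, myeloid and brain cells. It has 1 probe, ILMN_2699531, detected on all 6 arrays. The probe read 11.72, 11.35 and 11.94 in Blimp1 +/gfp and 12.80, 12.47 and 12.69 in Blimp1 gfp/gfp. All Blimp1 gfp/gfp values lay above all Blimp1 +/gfp values, and the nearest were 0.52 apart. Rgs10 rose by 0.98 ± 0.19 (SE; 95% confidence interval 0.52 to 1.44), a 1.97-fold difference with an adjusted p of 0.0420 in limma (Benjamini-Hochberg).

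The deposited intensities of Rgs10 were 3631, 2772 and 3169 in Blimp1 +/gfp and 7673, 6601 and 6678 in Blimp1 gfp/gfp. The gap is therefore present before background correction and normalization. On the authors' deposited log2 scale the difference was 0.95 (adjusted p = 0.0434 in limma).

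The call of Rgs10 lies close to the threshold. It ended with the fit over all 12042 probes (adjusted p = 0.0542), with no filter on dim probes (0.0558), with the replicate number as a block (0.0626) and in 5 of 6 omissions of an array (0.0927 to 0.159), while the difference stayed between 0.82 and 1.16 in all 19 settings tried. It passed without Blimp1 +/gfp replicate 3 (1.12, adjusted p = 0.0333 in limma).

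**Figure D2:**
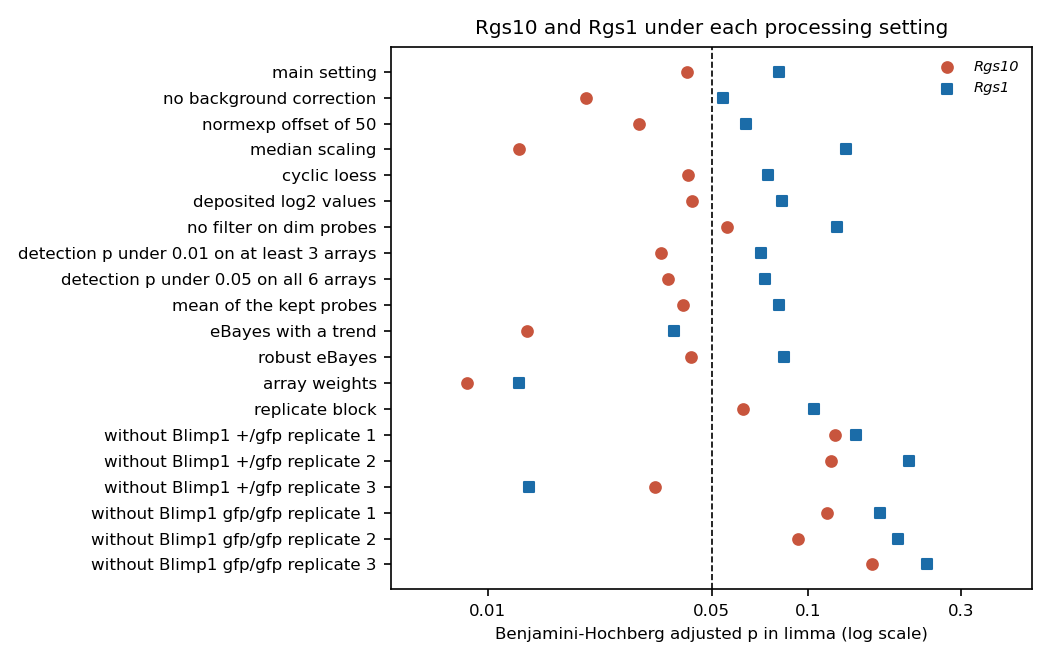
Benjamini-Hochberg adjusted p in limma (horizontal, log scale) of Rgs10 (circles) and Rgs1 (squares) under the main setting and the 19 alternatives (vertical), with the 0.05 threshold dashed. Rgs10 lies left of the threshold in the main setting and in 12 alternatives, and Rgs1 in 3.

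Blimp-1 is known to bind DNA at sites with a GAAAG core, often extended as AGNGAAAG, so the promoters of the members were searched for both spellings on both strands. RefSeq entries of GRCm38.p6, from 250 bases before to 50 bases after a transcription start, were at hand for 5 members with 8 starts, and for Rgs1, Rgs14 and Rgs18 there was no entry. AGNGAAAG was in 0 of the 8 and in 8.63% of 32851 promoters of the same length. GAAAG, which every AGNGAAAG contains, was in 2 of the 8, at 1 start of Rgs3 and 1 of Rgs19, and in 57.3% of all. The promoter of Rgs10, the member that passed, and the Rgs3 promoter with matches are printed 5′ to 3′ on the gene's strand, with GAAAG in capitals. The Rgs10 window (chr7:128418123-128418422, minus strand) has none. The Rgs3 window (chr4:62559597-62559896, plus strand) has 2, beginning 119 and 108 bases before the start.
Rgs10: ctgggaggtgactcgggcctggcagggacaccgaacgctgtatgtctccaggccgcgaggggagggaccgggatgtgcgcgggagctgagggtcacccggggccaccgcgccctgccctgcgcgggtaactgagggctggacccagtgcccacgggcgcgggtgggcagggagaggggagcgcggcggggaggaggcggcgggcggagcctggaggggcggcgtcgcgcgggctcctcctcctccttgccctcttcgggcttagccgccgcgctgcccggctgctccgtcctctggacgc
Rgs3: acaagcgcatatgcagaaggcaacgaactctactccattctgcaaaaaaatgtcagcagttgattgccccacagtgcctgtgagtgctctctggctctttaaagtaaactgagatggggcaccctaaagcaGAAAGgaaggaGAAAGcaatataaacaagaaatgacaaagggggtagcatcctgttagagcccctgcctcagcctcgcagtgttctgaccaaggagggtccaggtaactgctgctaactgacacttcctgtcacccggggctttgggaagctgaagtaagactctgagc
GC content was 76.0% in the Rgs10 window and 49.7% in that of Rgs3, beside a median of 52.7% over all promoters. A match is a description of the letters, and the array did not measure binding.

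Rgs19, also known as GAIP, encodes an RZ protein that acts on Gi alpha subunits. Its brighter probe, ILMN_2752044, read 8.22, 8.11 and 8.05 in Blimp1 +/gfp and 8.23, 8.31 and 8.73 in Blimp1 gfp/gfp. These do not overlap, but the nearest values were almost equal. The deposited intensities did overlap, with Blimp1 +/gfp replicate 2 at 423 and Blimp1 gfp/gfp replicate 1 at 422. The difference was 0.29 ± 0.17 (SE; 95% confidence interval -0.12 to 0.71), with an adjusted p of 0.434 in limma. The second probe, ILMN_1216354, was detected on 2 arrays of each genotype and differed by 0.09 ± 0.26.

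**Figure D3:**
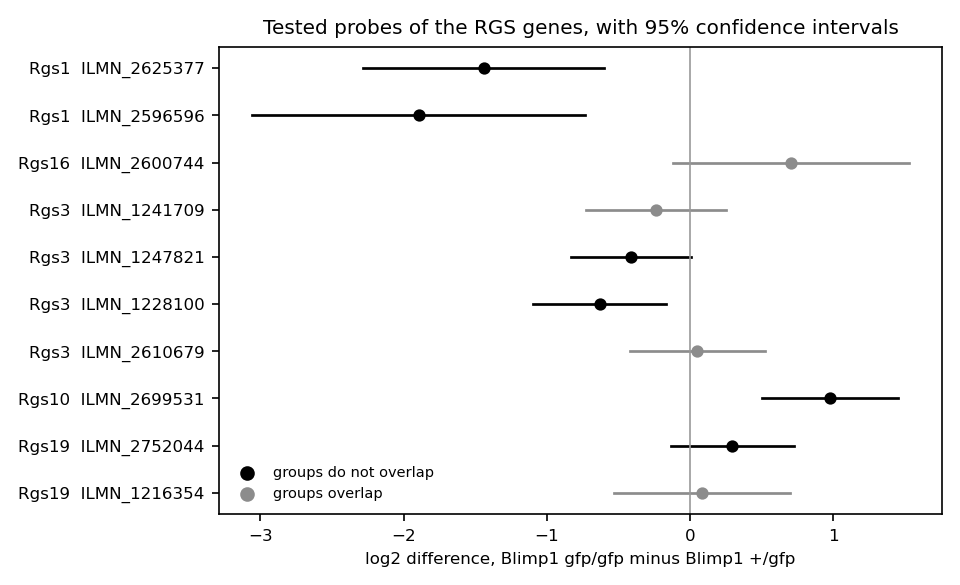
Log2 difference (Blimp1 gfp/gfp minus Blimp1 +/gfp, horizontal) of the 10 tested RGS probes, with 95% confidence intervals from the fit over all probes; black marks probes whose genotypes do not overlap, grey the rest. The 2 Rgs1 probes and ILMN_1228100 of Rgs3 have intervals below 0, and Rgs10 has one above 0.

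Over all probes of the members, 10 of 18 were tested and 0 passed after adjustment, beside 2.96% of 12042 probes (limma). At an unadjusted p under 0.05 the count was 4 of 10, beside 16.5% of all probes. On the normalized scale the genotypes did not overlap for 6 of the 10, 4 lower and 2 higher, beside 23.7% of all probes (9.73% counted lower). Among these, ILMN_1247821 of Rgs3 and ILMN_2752044 of Rgs19 did overlap in the deposited intensities. The 8 untested probes read 4.71 to 5.57, with detection p of at least 0.0917. Probes of 1 gene share its transcripts, so they are not separate tests of the family.

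The gene whose profile lay nearest to that of Rgs10, by root mean square distance between mean-centred log2 values over the 6 arrays, was Slc43a2, which encodes an amino acid transporter, at 0.127. Next was Rhbdl3, a member of the rhomboid protease family, at 0.128. They differed by 0.81 (adjusted p = 0.0385) and 0.75 (adjusted p = 0.118 in limma).

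Few other RGS genes could be tested. Of 10 further RGS genes with probes, 6 were undetected on every array and 2 were tested; as probes of Rgs1 and Rgs3 show, a probe without detection does not show that its gene is silent. Rgs12, an R12 relative of Rgs10, differed by -0.40 ± 0.27 and Rgs9, an R7 protein known from photoreceptors and striatum, by 0.34 ± 0.36 (SE; adjusted p = 0.488 and 0.695 in limma).

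Other proteins with an RGS domain gave 0 of 10 past the threshold in limma, and an unadjusted p under 0.05 was reached by 2 genes upward and 2 downward, beside 4.12% and 18.5% of all genes in either direction. Grk5, a kinase that phosphorylates active receptors, read 6.80, 6.57 and 6.92 in Blimp1 +/gfp and 6.14, 5.49 and 5.71 in Blimp1 gfp/gfp. These values do not overlap, and it was detected on 2 of the 3 Blimp1 gfp/gfp arrays. The difference was -0.98 ± 0.21 (SE; adjusted p = 0.0517 in limma). Snx13, a sorting nexin with an RGS domain, differed by -0.61 ± 0.13 (adjusted p = 0.0559).

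Among the G protein alpha subunits on which RGS proteins act, 1 of 8 tested rose and 0 fell, beside 4.12% of all genes. Gna14, a subunit of the Gq class, read 5.23, 5.53 and 6.53 in Blimp1 +/gfp and 9.43, 9.85 and 8.80 in Blimp1 gfp/gfp. Detection was reached by 1 array of Blimp1 +/gfp and all 3 of Blimp1 gfp/gfp, so it was tested only because of its level in Blimp1 gfp/gfp, and the count of 1 is no support for the list (log2 difference 3.60 ± 0.40 SE, adjusted p = 0.00744 in limma). The other 7 did not pass. Of the beta and gamma subunits 0 of 10 passed in limma, while 1 was higher and 4 were lower by unadjusted p (under 0.05), beside 4.12% and 18.5% of all genes. There Gng12, a gamma subunit, differed by -1.61 ± 0.36 (adjusted p = 0.0607) and Gnb4, a beta subunit, by -0.47 ± 0.16 (adjusted p = 0.167).

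Downstream, 0 of 5 adenylyl cyclases and phospholipases C beta passed in limma, beside 4.12% of all genes. By unadjusted p (under 0.05) the counts were 0 upward and 1 downward, beside 18.5% of all genes. Plcb2, a phospholipase activated by G proteins, differed by -0.72 ± 0.16 and Plcb3, a related enzyme, by -0.36 ± 0.18 (adjusted p = 0.0581 and 0.345 in limma). Of 7 other regulators of G proteins and receptors 0 passed, and 0 at an unadjusted p under 0.05 in limma, beside 4.12% and 18.5% of all genes. Gipc1, a scaffold that binds the tail of Rgs19, differed by 0.25 ± 0.20 and Gps1, a COP9 signalosome subunit once named a G protein pathway suppressor, by 0.20 ± 0.17.

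Upstream of the G proteins lie the receptors. Of 20 chemoattractant and lipid receptors tested, 6 rose and 2 fell, beside 4.12% of all genes, with a list median of -0.22. Cxcr4, the receptor for CXCL12 that holds cells in bone marrow, read 11.96, 11.73 and 11.70 in Blimp1 +/gfp and 13.10, 13.32 and 13.05 in Blimp1 gfp/gfp, and it rose by 1.36 ± 0.15 (SE; adjusted p = 0.00744 in limma). Ccr6, which binds CCL20, rose by 3.55 ± 0.34 (adjusted p = 0.00585). Ltb4r1, a leukotriene B4 receptor, rose by 1.09 ± 0.14 (adjusted p = 0.0121), and Ptger2, a prostaglandin E2 receptor, by 1.35 ± 0.22 (adjusted p = 0.0226 in limma). The 2 that fell, named after their values were seen, were Ccr2, a receptor for CCL2, at -1.94 ± 0.33 (adjusted p = 0.0256), and Fpr2, a formyl peptide receptor known from myeloid cells, at -3.51 ± 0.64 (adjusted p = 0.0328 in limma). Fpr2 was detected on 3 Blimp1 +/gfp arrays and 1 Blimp1 gfp/gfp array, so it was tested only because of its level in Blimp1 +/gfp. Its place in the count is no support for the list. Fpr2 was highest, at 10.25, in Blimp1 +/gfp replicate 3, the array with the highest myeloid markers. Their part in the Fpr2 values was not tested. Whether the share differs between receptors and regulators was not tested.

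**Figure D4:**
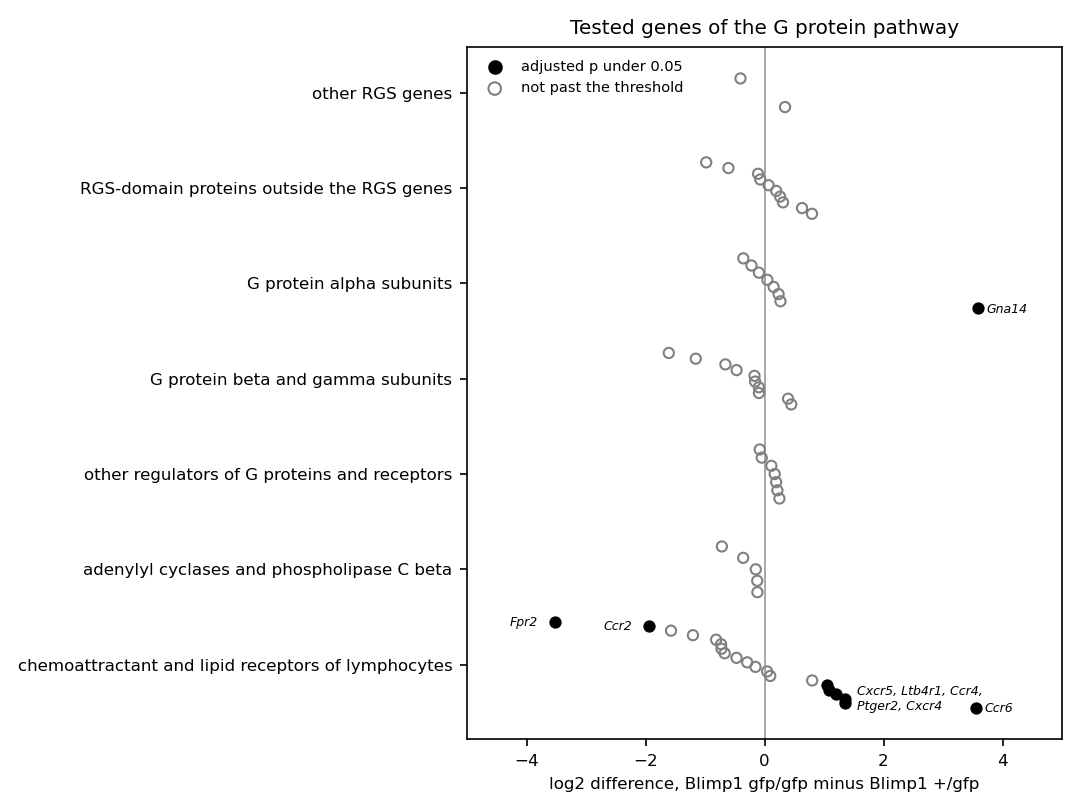
Log2 difference (Blimp1 gfp/gfp minus Blimp1 +/gfp, horizontal) of every tested gene in 7 lists of the G protein pathway (vertical), sorted within a list; filled points passed an adjusted p of 0.05 and are named. The 9 filled points are Gna14 and 8 receptors, of which 6 rose and 2 fell.

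Markers of other cells were summed over each list as linear intensities of the brightest probe and put on a log2 scale. Platelet and megakaryocyte markers ranged from 8.48 to 8.63 in Blimp1 +/gfp and from 8.69 to 8.84 in Blimp1 gfp/gfp. That sum lay near the background of its probes and cannot follow a cell type. Of this list, Gp1bb was the 1 gene tested and it rose by 1.33 ± 0.22 (SE; adjusted p = 0.0242 in limma), while 6 of its 10 measured genes, Pf4 and Itga2b among them, were undetected on all arrays. Myeloid markers ranged from 11.33 to 13.65 and from 11.70 to 12.24, and antigen presentation markers from 13.84 to 16.13 and from 13.50 to 14.27. B cell markers, beside Rgs1, ranged from 10.43 to 11.62 in Blimp1 +/gfp and from 10.88 to 11.94 in Blimp1 gfp/gfp, and overlapped. Of 8 such markers with a probe, Pax5 was undetected on every array. The 6 tested had a median difference of 0.44, beside 0.03 for all genes. In limma 0 of them passed the threshold, beside 4.12% of all genes. At an unadjusted p under 0.05 in limma, 1 was higher and 0 lower, beside 18.5% of all genes. The part of these cells in the RGS values was not tested, and on such arrays fewer cells of a type and less RNA per cell cannot be told apart.

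The remaining lists set the frame. T cell markers summed to 16.61 to 16.78 in Blimp1 +/gfp and 16.36 to 16.74 in Blimp1 gfp/gfp. Regulatory T cell markers summed to 14.84 to 15.01 and 14.01 to 14.65, lower in Blimp1 gfp/gfp without overlap, as Rgs1 did. Of the 6 tested, 0 were higher and 1 was lower past the threshold, beside 4.12% of all genes (limma). At an unadjusted p under 0.05, 0 were higher and 2 lower, beside 18.5%, and the median difference was -0.55. The part of these markers in the Rgs1 values was not tested. Erythroid markers summed to 7.83, 8.86 and 13.45 in Blimp1 +/gfp and 10.14, 12.97 and 11.45 in Blimp1 gfp/gfp, replicates 1 to 3. Blimp1 +/gfp replicate 3 was the highest of all arrays. CD8 and NK cell markers ranged from 12.39 to 12.53 and from 11.66 to 12.66, in the same order of genotypes.

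**Figure D5:**
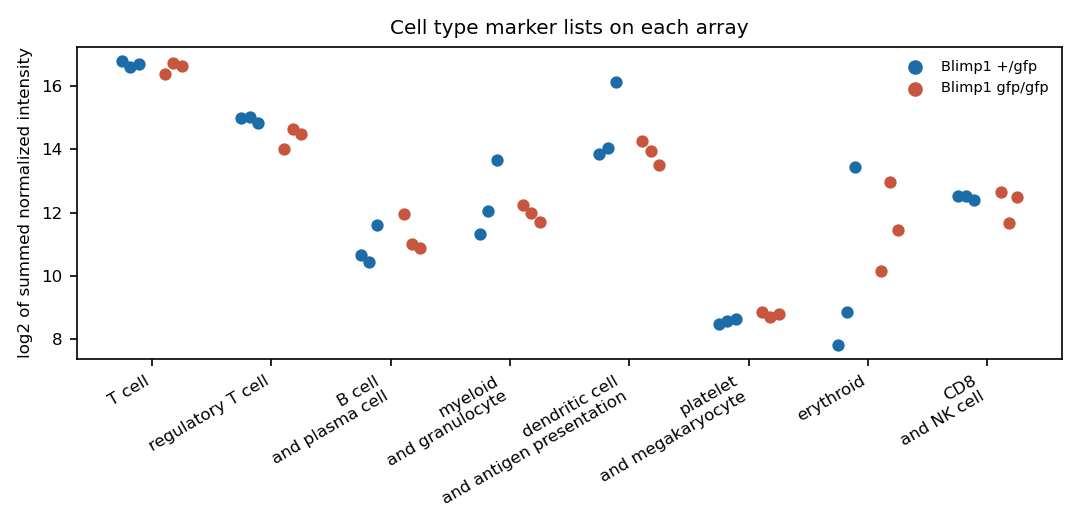
Log2 of the summed normalized intensity (vertical) of 8 cell type marker lists (horizontal) on each array, blue for Blimp1 +/gfp and red for Blimp1 gfp/gfp. Blimp1 +/gfp replicate 3 stands above the other arrays in antigen presentation (16.13), myeloid (13.65) and erythroid markers (13.45), and the regulatory T cell list is lower in Blimp1 gfp/gfp.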

How the data were processed

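RNA was amplified and labelled with Cy3, per the labels' protocols, and hybridised to 6 Illumina arrays of 46632 probes. The authors deposited a mean bead intensity per probe on a linear scale, neither background-subtracted nor normalized by its values, and a detection p-value per probe and array, per the file headers. They also deposited normalized log2 values. BeadStudio and limma are named in the submitters' processing notes, with their versions not given in the sources used here. The deposited log2 values differed from limma's neqc on the intensities by at most 0.0975 (median 0.00293), so their scale and direction are known, and they were used as an alternative. No per-sample column of another sample was present.

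The neqc function of limma 3.58.1 (R 4.3.3) estimated background from the detection p-values, added 16, quantile-normalized the arrays and took log2, which compresses differences of dim probes. Genes were named from the platform annotation (29976 probes with 1 symbol, 10 with several, 16646 with none), and 7 of 7 member symbols with probes matched RefSeq by Entrez ID. A probe was kept if 3 or more of the 6 arrays gave it a detection p under 0.05, and the brightest kept probe stood for a gene. Genotypes were compared with lmFit and eBayes, with Benjamini-Hochberg adjustment over all 8743 genes, or over all 12042 kept probes for single probes, and a threshold of 0.05. The procedure was tested on simulated data with independent noise on each array and no effect of the BeadChip. That test therefore does not bear on the overlap of BeadChip and genotype.

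Samples were grouped by the labelled genotype. The members and gene lists were chosen with earlier results of these data known. The naming rule took all members and their probes, Prdm1, up to 4 passing genes of each pathway list or the 2 with the smallest p, and the 2 genes most alike to each member that passed. Alternatives changed the background correction, scaling, probe filter, probe choice, variance model, replicate block and threshold, or left out 1 array. Figures were drawn with matplotlib 3.10.9.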

Additional observations from a re-analysis of the deposited data

How the results depend on the processing

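The direction of Rgs10, Rgs1, Rgs16 and Rgs19 was kept in all 19 alternative settings of each, and Rgs16, Rgs19 and Rgs3 passed in 0 of them. Rgs3, at -0.24, came to 0.00 (0.000419) with array weights, and in omissions of an array ranged from -0.41 to -0.13. Of the probes near background, ILMN_2610679 of Rgs3 ranged from -0.0486 to 0.23 over the omissions and turned to -0.03 and -0.0486 when Blimp1 +/gfp replicate 1 or 3 was left out. ILMN_1216354 of Rgs19 ranged from -0.11 to 0.27, at -0.08 when Blimp1 +/gfp replicate 1 and at -0.11 when the first Blimp1 gfp/gfp array was left out. The count of tested members past the threshold, 1 in the reported setting, was 0 with no filter on dim probes, with the replicate block and at an adjusted p under 0.01, and 2 with a trend in eBayes, with array weights and at an adjusted p under 0.1; omissions gave 0 to 2. Among the 10 probes, 0 passed as reported, 1 with median scaling, and 0 to 3 in the omissions (3 without Blimp1 +/gfp replicate 3). The count of genes, 360, was 827 with array weights, 171 with the replicate block, 71 at an adjusted p under 0.01, 668 at 0.1, and 71 to 348 in the omissions; leaving out Blimp1 +/gfp replicate 1 gave 71 and replicate 2 gave 82, and leaving out each Blimp1 gfp/gfp array gave 183, 120 and 97 in order of number. The count of probes, 356, was 169 with the replicate block and 10 to 328 in the omissions, the lowest when Blimp1 +/gfp replicate 2 was left out. Arrays with the same replicate number had correlations of deviations from their group means of 0.19, -0.08 and 0.00. Arrays with different numbers gave -0.15 to 0.16. With 3 arrays per genotype these values cannot decide whether samples were paired, and the labels do not say. The block is therefore given as 1 more setting. Median scaling moved the median difference of all genes from 0.03 to 0.16; relative to that median Rgs10 was 0.95 as reported and 0.99 with median scaling, and Rgs1 -1.47 and -1.45. The cause of these changes was not tested. Probes near background, Rgs2 and Rgs18 among them, allow no statement on a difference.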
